A study of Mus musculus with 18 samples.

Results

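The genes examined here make cholesterol, sense it, move it within the cell, take it up and export it. Of 33 listed genes, 30 had a microarray probe annotated to them alone, among 22180 genes measured that way. These were 16 synthesis genes, 5 genes of the sterol sensor and its transcription factors, 3 genes of transport within the cell and 6 genes of uptake and efflux. Idi1 shares its probe with another gene, and Idi1, Acat2 and Nr1h2 were not analysed here. Phagocytes were sorted from the small intestine of male and female VDTR mice. In this strain, as known from the study, the villin promoter places a fusion of the toxin's receptor and green fluorescent protein (GFP) in the gut epithelium, and GFP in a sorted phagocyte is read as epithelial material taken up. Every mouse received diphtheria toxin into the peritoneum at 2 ng per kg and was killed 4 hours later, and no group without the toxin was analysed here. The 6 groups of 3 arrays were GFP-plus and GFP-minus cells of 3 gates on live CD45+ CD11c+ MHCII+ cells: CD103+ CD24+ cells labelled dendritic cells (DCs), CD103+ CD11b+ CD64+ cells labelled macrophages (CD103CD11bCD64) and CD11b+ CD64+ cells labelled macrophages (CD11bCD64). The question addressed is whether transcript levels of phagocytes that carry epithelial material differ from those of phagocytes that do not.

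Cells build cholesterol from acetyl-CoA through mevalonate, isoprenoid diphosphates, squalene and lanosterol. The membrane-bound factors SREBP switch on the synthesis genes when sterol in the endoplasmic reticulum is low, with the escort Scap carrying them to the Golgi for cleavage and the Insig proteins holding them back when sterol is plentiful. Oxysterols activate the nuclear receptor LXR, which switches on the exporters Abca1 and Abcg1, the apolipoprotein Apoe and Mylip, a ubiquitin ligase that removes lipoprotein receptors. Phagocytes that engulf dying cells take in their membrane cholesterol, which lysosomal Npc1 and Npc2 release for re-use or export.

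The promoters of 3 synthesis genes and of the exporter Abca1 are shown as examples. These genes had an unadjusted limma p under 0.05 in a GFP comparison below, as did others not shown, among them Dhcr7 and Hsd17b7. Each promoter runs 5′ to 3′ in the direction of the gene and covers 250 bases before and 50 after the RefSeq start on build GRCm38.p6. Hmgcs1 lies at chr13:119690101-119690400 on the plus strand, Msmo1 at chr8:64733529-64733828 on the minus strand, Nsdhl at chrX:72918271-72918570 on the plus strand and Abca1 at chr4:53159846-53160145 on the minus strand. Capitals mark CCAAT, the word of the factor NF-Y that works beside SREBP, read as ATTGG on the other strand. In Hmgcs1 they also mark the sterol element word TCACNCCAC, and in Abca1 the E-box word CACGTG.
Hmgcs1: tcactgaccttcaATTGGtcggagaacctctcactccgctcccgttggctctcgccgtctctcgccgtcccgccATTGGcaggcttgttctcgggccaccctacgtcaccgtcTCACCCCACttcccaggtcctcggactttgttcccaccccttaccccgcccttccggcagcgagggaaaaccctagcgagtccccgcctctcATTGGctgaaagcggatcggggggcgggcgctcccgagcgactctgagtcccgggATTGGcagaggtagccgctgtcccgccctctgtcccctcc
Msmo1: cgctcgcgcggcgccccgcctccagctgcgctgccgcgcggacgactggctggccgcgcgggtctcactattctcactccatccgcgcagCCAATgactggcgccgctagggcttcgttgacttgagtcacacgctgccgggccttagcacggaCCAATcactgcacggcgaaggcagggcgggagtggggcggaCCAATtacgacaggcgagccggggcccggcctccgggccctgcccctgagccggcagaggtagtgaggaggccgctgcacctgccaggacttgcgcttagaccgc
Nsdhl: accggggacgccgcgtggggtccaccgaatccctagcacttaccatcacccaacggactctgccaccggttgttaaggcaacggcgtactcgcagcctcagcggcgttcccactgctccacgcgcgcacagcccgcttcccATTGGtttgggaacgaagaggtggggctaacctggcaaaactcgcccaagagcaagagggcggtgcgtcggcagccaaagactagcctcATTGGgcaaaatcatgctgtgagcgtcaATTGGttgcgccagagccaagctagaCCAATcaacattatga
Abca1: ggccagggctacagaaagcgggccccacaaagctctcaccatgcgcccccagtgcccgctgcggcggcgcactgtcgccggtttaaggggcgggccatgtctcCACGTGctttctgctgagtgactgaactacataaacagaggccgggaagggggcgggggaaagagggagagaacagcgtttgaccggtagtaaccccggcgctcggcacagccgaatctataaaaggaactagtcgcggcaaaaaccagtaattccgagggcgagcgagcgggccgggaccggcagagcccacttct
Hmgcs1 held CCAAT 4 times and TCACCCCAC 137 bases before the start, Msmo1 held CCAAT 3 times and Nsdhl 4 times, and Abca1 held none.

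RefSeq promoters were found for 13 of the 16 synthesis genes (16 promoters) and for 4 of the 6 uptake and efflux genes (7 promoters). CCAAT, searched on both strands, was in 81.2% of the synthesis promoters and at least once in each of the 13 genes, against 14.3% of the uptake and efflux promoters and 37.4% of all 32851 promoters of this length. The GC-box word GGGCGG was in 81.2% of the synthesis promoters, 28.6% of the uptake and efflux promoters and 35.7% of all promoters. TCACNCCAC, which covers TCACCCCAC, was in 6.25% of the synthesis promoters, that of Hmgcs1, against 1.24% of all promoters, and TCACCCCAC alone was in 0.551% of all promoters. CACGTG was in 18.8% of the synthesis promoters, 14.3% of the uptake and efflux promoters and 7.15% of all promoters. The LXR direct repeat, searched as AGGTCA and AGNTCA with 4 bases between them, was in 0 promoters of the genes examined and in 0.0365% of all promoters. This strict pattern matched only 12 of 32851 promoters, and repeats that depart from it were not searched. Its absence therefore cannot show that Abca1 or another gene lacks an LXR site. A match describes the letters of this window and no more.

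The deposited values are on a log2 scale, with each probe centred on its own median over the 18 arrays, so 0 is a probe's middle value and not background. A level cannot be compared between genes, and whether a probe was above background cannot be read. Array interquartile ranges ran from 0.256 to 0.578, and limma array weights from 0.352 to 2.52. The 4 arrays of lowest weight were replicate 1 of the GFP-plus CD103CD11bCD64 macrophages (0.352), replicate 1 of the GFP-plus DCs (0.414), replicate 2 of the GFP-minus CD103CD11bCD64 macrophages (0.437) and replicate 1 of the GFP-minus CD11bCD64 macrophages (0.507). Of the markers, Flt3 (log2 difference 4.06, adjusted p = 1.58e-11), Xcr1 (4.55, adjusted p = 1.64e-07) and Itgae (5.09, adjusted p = 4.21e-07) were higher in DCs than in macrophages by limma, and Zbtb46 missed the threshold (0.67, adjusted p = 0.351). Batf3 and Cd207 of the same dendritic cell list were not called either. In this comparison 10.0% of all genes were called. Fcgr1, Adgre1, C1qa and Mertk were lower in DCs, with differences of -4.79, -5.06, -5.66 and -3.34, as were all 12 macrophage markers of the list. Itgae, Fcgr1 and Cd24a encode proteins that the gates used. In bulk samples, fewer cells of a type and less RNA per cell cannot be told apart. The labels give an n of 4 for every sample without saying what it counts. They leave unsaid whether replicates were separate mice, so p-values measure the spread between these samples, which may be technical.

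**Figure D1:**
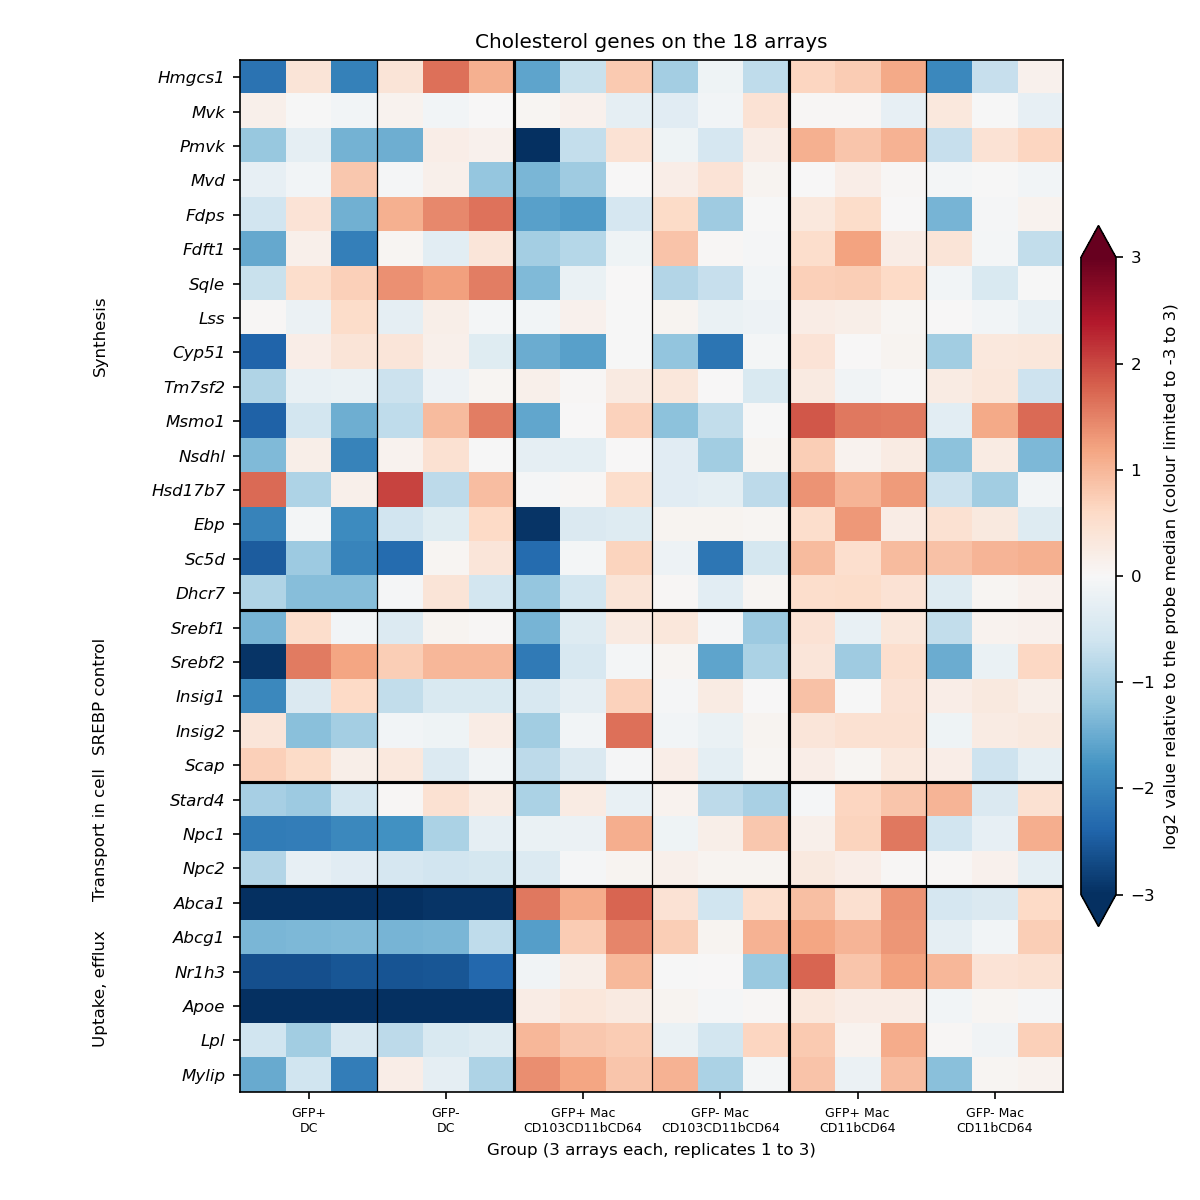
Colour gives the log2 value, relative to the probe median, of the 30 genes (vertical) on the 18 arrays (horizontal, 3 per group, replicates 1 to 3). Abca1, Nr1h3 and Apoe stand lowest on the 6 DC arrays, where their highest values were -2.94, -2.35 and -3.19. The synthesis genes are mostly above 0 on the 3 GFP-plus CD11bCD64 macrophage arrays.

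In DCs, transcripts of cholesterol synthesis were lower in GFP-plus than in GFP-minus cells for most steps, but no gene passed the test over all genes. The log2 difference was below 0 for 13 of the 16 synthesis genes, with a median of -1.13, beside a median of -0.02 over all 22180 genes. By limma with Benjamini-Hochberg adjustment over all genes, 0 of the 30 genes were called in DCs, where 1.58% of all genes were. At an unadjusted p under 0.05, 10 of the 30 were picked (15.4% of all genes), of which 9 were lower (10.0% of all genes) and Scap was higher. The 2 probes of Scap gave differences of 0.95 ± 0.39 and 0.16 ± 0.21 (SE). All GFP-plus arrays lay below all GFP-minus arrays for 7 of the 30 genes, a pattern that 11.5% of all genes showed.

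Fdps, which makes the farnesyl diphosphate shared by sterols and prenylated proteins, had -0.57, 0.41 and -1.45 in GFP-plus DCs, against 1.06, 1.43 and 1.62 in GFP-minus DCs. The groups did not overlap, and the difference was -1.91 ± 0.52 (SE, limma adjusted p = 0.0894). Hmgcs1, which makes the HMG-CoA at the head of the pathway, had -2.22, 0.38 and -2.02 in GFP-plus DCs, against 0.39, 1.66 and 1.06 in GFP-minus DCs. Its difference was the widest of the 30 genes at -2.33 ± 0.71 (SE, limma adjusted p = 0.12), and GFP-plus replicate 2 lay just under the lowest GFP-minus array. Sqle, the squalene epoxidase, had -0.68, 0.54 and 0.70 in GFP-plus DCs, against 1.37, 1.22 and 1.55 in GFP-minus DCs, a difference of -1.19 ± 0.37 (SE, adjusted p = 0.122). Dhcr7, the reductase of the last step, had -0.89, -1.28 and -1.28 in GFP-plus DCs, against -0.04, 0.38 and -0.55 in GFP-minus DCs, a difference of -1.08 ± 0.32 (SE, adjusted p = 0.108). Neither Sqle nor Dhcr7 overlapped between the groups.

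The remaining synthesis genes with an unadjusted p under 0.05 overlapped between the groups. Msmo1, the methylsterol monooxygenase, had -2.42, -0.54 and -1.47 in GFP-plus DCs, against -0.76, 0.94 and 1.54 in GFP-minus DCs (difference -2.05 ± 0.70, SE). Nsdhl, the sterol dehydrogenase that follows it, had -1.33, 0.18 and -2.01 in GFP-plus DCs, against 0.10, 0.47 and -0.02 in GFP-minus DCs (difference -1.24 ± 0.50, SE). Fdft1, the squalene synthase, had -1.53, 0.16 and -2.04 in GFP-plus DCs, against 0.07, -0.31 and 0.35 in GFP-minus DCs (difference -1.17 ± 0.49, SE). In Hmgcs1, Fdps, Fdft1 and Nsdhl, GFP-plus replicate 2 was the array nearest to the GFP-minus cells. Without that array limma called 4 of the 30 genes, these same 4, all lower in GFP-plus DCs. Without GFP-plus DC replicate 1 it called Apoe alone, and without replicate 1 or replicate 3 of the GFP-plus CD103CD11bCD64 macrophages it called Dhcr7 alone. Not every step was low: Mvk, Mvd and Lss had differences of 0.01, 0.51 and 0.19 in DCs.

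Among the genes of the sterol sensor and its transcription factors, Scap had a higher group mean in GFP-plus than in GFP-minus DCs. The group means of Srebf1, Srebf2 and Insig2 were lower in GFP-plus DCs. Those of Insig1 were nearly equal, at -0.59 in GFP-plus and -0.55 in GFP-minus DCs. Srebf2, which encodes the SREBP of the sterol genes, had -2.93, 1.56 and 1.18 in GFP-plus DCs, against 0.74, 1.00 and 1.00 in GFP-minus DCs, so GFP-plus replicate 1 was the lowest and replicate 2 the highest of the 6. Insig1, itself an SREBP target, had -1.93, -0.43 and 0.59 in GFP-plus DCs, against -0.74, -0.45 and -0.46 in GFP-minus DCs. The groups overlapped for all 5 genes of the sterol sensor and its transcription factors, whose median difference was -0.22. Among the transport genes, Stard4, a cytosolic sterol carrier, had -0.99, -1.08 and -0.55 in GFP-plus DCs, against 0.04, 0.45 and 0.24 in GFP-minus DCs, with no overlap (difference -1.12 ± 0.39, SE, limma adjusted p = 0.179). Npc1, the lysosomal exporter of sterol, had -2.09, -2.07 and -1.94 in GFP-plus DCs, against -1.82, -0.96 and -0.26 in GFP-minus DCs, again with no overlap (difference -1.02 ± 0.51, SE). These are means of 2 probes, which gave differences of -0.58 ± 0.55 and -1.45 ± 0.81 (SE).

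All 6 uptake and efflux genes had a difference below 0 in DCs, with a median of -0.30. The sign of this median depended on the normalization, as quantile normalization took it to 0.14. Apoe had -3.46, -6.04 and -5.01 in GFP-plus DCs, against -3.19, -3.49 and -3.84 in GFP-minus DCs, which overlapped (difference -1.33 ± 0.42, SE, limma adjusted p = 0.132). Abca1 had -3.45, -3.54 and -3.42 in GFP-plus DCs, against -3.28, -2.94 and -2.95 in GFP-minus DCs, a difference of -0.41 ± 0.33 (SE). Abcg1 had -1.38, -1.35 and -1.33 in GFP-plus DCs, against -1.39, -1.37 and -0.75 in GFP-minus DCs. The values of Abca1, Abcg1 and Nr1h3 in DCs lay close together and at the low end of each probe, where background cannot be told from signal.

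**Figure D2:**
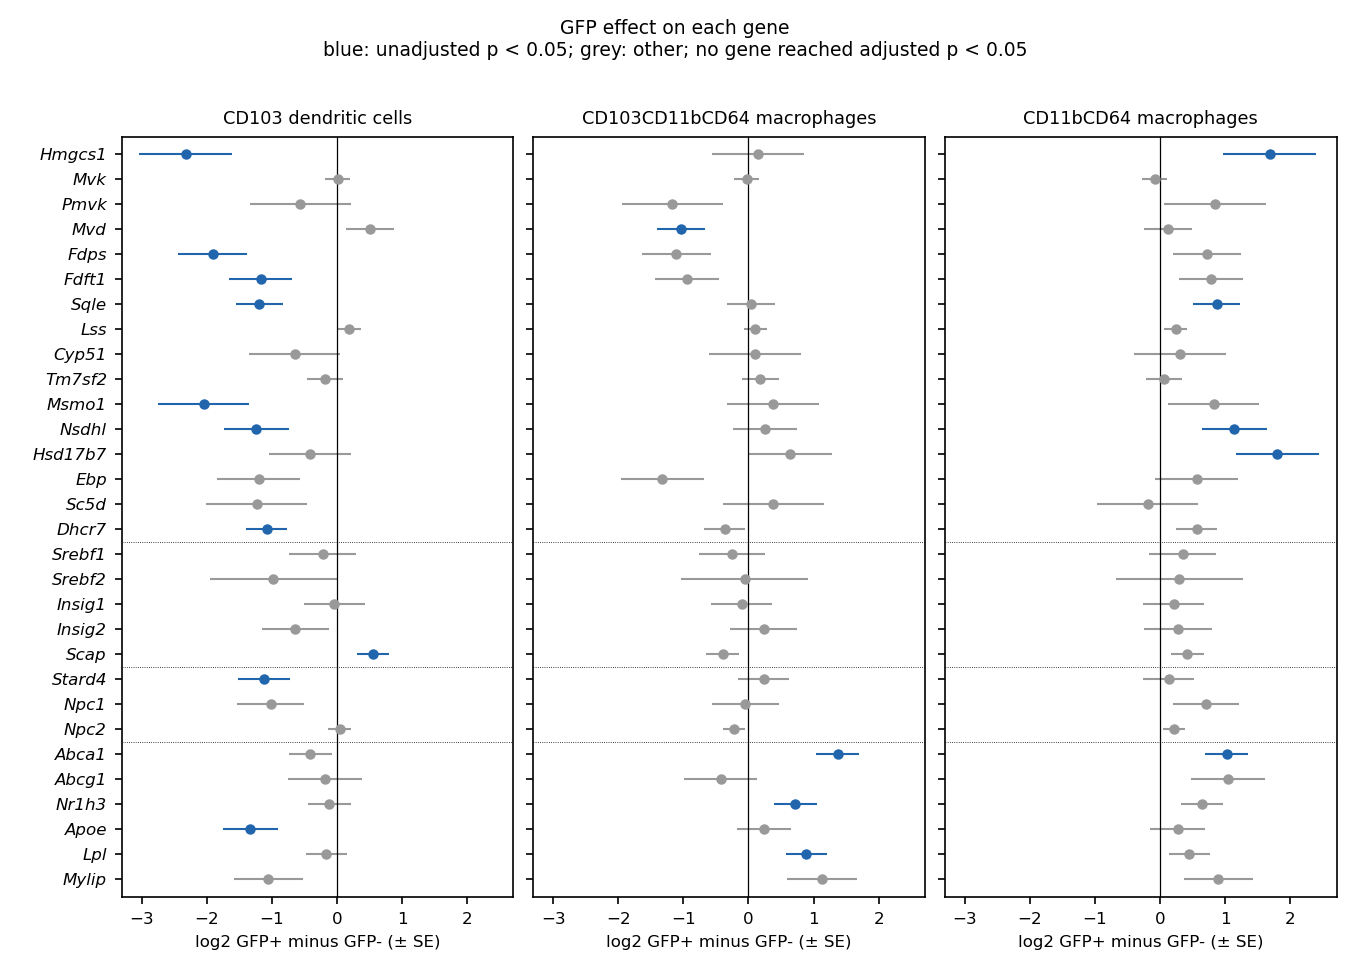
Points give the log2 difference between GFP-plus and GFP-minus cells (horizontal, with its standard error) for each of the 30 genes (vertical) in the 3 populations. Most synthesis genes lie left of 0 in DCs, with a median of -1.13, and right of 0 in CD11bCD64 macrophages, with a median of 0.65. Blue points have an unadjusted p under 0.05, and none passed after adjustment.

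Of the listed genes of neighbouring pathways, 91 were measured, and 8 were called in DCs, 7 lower and 1 higher in GFP-plus cells, where 1.58% of all genes were called. The cleavage steps of SREBP were among them. Mbtps2, a protease that cuts SREBP in the Golgi membrane, had -2.64, -1.32 and -2.49 in GFP-plus DCs, against 0.71, 0.39 and 0.82 in GFP-minus DCs, and fell by 2.79 ± 0.48 (SE, limma adjusted p = 0.0135). Mbtps1, the protease that makes the first cut, had -1.62, -1.73 and -1.54 in GFP-plus DCs, against -0.30, 0.88 and 0.71 in GFP-minus DCs, and fell by 2.06 ± 0.39 (SE, adjusted p = 0.0204). Neither overlapped between the groups. In the isoprenoid branch, Ggps1, which makes geranylgeranyl diphosphate, fell by 2.64 ± 0.55 (SE, limma adjusted p = 0.0323) and Fnta, a subunit of the protein prenyl transferases, fell by 1.67 ± 0.28 (SE, adjusted p = 0.0115). Lipa, the lysosomal acid lipase that frees cholesterol from its esters, had -2.44, -2.16 and -3.48 in GFP-plus DCs, against -0.79, -1.17 and -1.21 in GFP-minus DCs, and fell by 1.63 ± 0.32 (SE, limma adjusted p = 0.0232). Tbl1xr1, a corepressor subunit, and Lpcat3, an LXR target that remodels phospholipids, fell by 1.46 and 1.36. Cxcl16, a chemokine that also serves as a scavenger receptor, rose by 0.76 ± 0.15 (SE, limma adjusted p = 0.0271). All 8 calls were lost in a fit of the DC arrays alone, and all except that of Cxcl16 when the arrays were quantile normalized, which also took the median of the synthesis genes to -0.49. The calls of Tbl1xr1 and Lpcat3 were lost in 14 and 15 of 27 settings, with adjusted p-values up to 0.376 and 0.563. That of Mbtps2 was lost in 4 settings, among them those without GFP-plus DC replicate 1 or GFP-minus replicate 3, and those of Mbtps1 and Cxcl16 in 5 each, without these arrays or GFP-minus replicate 2 among them. Ggps1 lost its call in 7 settings (without GFP-plus DC replicate 1 or 3, GFP-minus DC replicate 2 or 3 or GFP-plus CD11bCD64 replicate 1), Lipa in 6 (without GFP-plus DC replicate 3 or any GFP-minus DC array) and Fnta in 2, neither of which left out a single array.

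Markers of other cells and of the cell cycle moved with the GFP gate in DCs, where 1.58% of all genes were called. The mean of 17 cell cycle genes lay between -0.47 and 0.17 on the GFP-plus arrays and between 0.69 and 1.06 on the GFP-minus arrays, and 3 of them fell (Kif11, Cenpe and Bub1, named after their values were seen). The mean of 19 enterocyte markers lay between 0.42 and 0.48 on the GFP-plus arrays and between -0.29 and -0.02 on the GFP-minus arrays, and 1 of them rose (Fabp6). The mean of 12 macrophage markers lay between -4.76 and -4.28 on the GFP-plus arrays and between -4.22 and -3.47 on the GFP-minus arrays, and 2 of them fell (C1qa and Lyz2). The mean of 13 T and innate lymphocyte markers lay between -0.30 and 0.10 on the GFP-plus arrays and between 0.27 and 1.14 on the GFP-minus arrays, and 1 of them fell (Gzma). The mean of 14 secretory epithelial markers lay between 0.31 and 0.81 on the GFP-plus arrays and between -0.25 and -0.20 on the GFP-minus arrays, and 1 of them rose (Defa24). The means of 8 B and plasma cell markers, of which Ighm fell, and of 9 monocyte markers, of which none was called, were lower on every GFP-plus array than on any GFP-minus array. Interquartile ranges were 0.578, 0.394 and 0.474 on the GFP-plus arrays, against 0.375, 0.278 and 0.293 on the GFP-minus arrays. The part of these in the differences of the cholesterol genes was not tested.

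In CD103CD11bCD64 macrophages the GFP-plus cells had higher values of most uptake and efflux genes and no shared direction in synthesis, with median differences of 0.80 for uptake and efflux and 0.07 for synthesis, beside 0.02 over all genes. By limma 0 of the 30 genes were called after adjustment, where 0.0541% of all genes were, and 4 had an unadjusted p under 0.05 (9.20% of all genes). Abca1, which loads cholesterol onto apolipoproteins, had 1.58, 1.12 and 1.74 in GFP-plus cells, against 0.43, -0.61 and 0.50 in GFP-minus cells. The groups did not overlap, and the difference was 1.37 ± 0.33 (SE, limma adjusted p = 0.150). Lpl, the lipoprotein lipase, had 1.01, 0.80 and 0.76 in GFP-plus cells, against -0.20, -0.54 and 0.65 in GFP-minus cells (difference 0.89 ± 0.31, SE, adjusted p = 0.365). Nr1h3, which encodes LXR alpha, had -0.10, 0.17 and 0.97 in GFP-plus cells, against values of at most 0.00 in GFP-minus cells, the lowest of which was -1.12 (difference 0.72 ± 0.33, SE, adjusted p = 0.525). Apoe overlapped in neither macrophage population, with 0.21, 0.33 and 0.27 in GFP-plus cells here, against 0.09, -0.03 and 0.03 in GFP-minus cells, a small difference of 0.24.

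Synthesis genes of CD103CD11bCD64 macrophages went both ways. Their mean varied more between GFP-plus arrays (SD 0.71) than between GFP-minus arrays (SD 0.23), which did not hold for each gene. Mvd, the mevalonate diphosphate decarboxylase, had -1.37, -1.06 and 0.00 in GFP-plus cells, against 0.20, 0.40 and 0.08 in GFP-minus cells (difference -1.04 ± 0.37, SE, limma adjusted p = 0.369). The mean of the 16 synthesis genes was -1.26, -0.49 and 0.16 on the GFP-plus arrays, against -0.21, -0.56 and -0.12 on the GFP-minus arrays, so the GFP-plus arrays lay on both sides of the GFP-minus ones. The lowest, GFP-plus replicate 1, also had the lowest array weight. Without GFP-plus replicate 3 the median difference of the synthesis genes was -0.33. Abcg1, the exporter to lipoproteins, had -1.65, 0.77 and 1.45 in GFP-plus cells, against 0.75, 0.07 and 1.04 in GFP-minus cells, the low value being that of replicate 1. Npc1 had -0.20, -0.18 and 1.10 in GFP-plus cells, against -0.12, 0.17 and 0.81 in GFP-minus cells, and its 2 probes disagreed in the sign of the difference, -0.56 and 0.47. Srebf2 had -2.11, -0.47 and -0.07 in GFP-plus cells, against 0.07, -1.58 and -0.96 in GFP-minus cells, and Insig1 had -0.48, -0.28 and 0.68 in GFP-plus cells, against -0.04, 0.25 and 0.02 in GFP-minus cells. These 3 genes overlapped between the gates. The mean of the 13 T and innate lymphocyte markers lay between -0.20 and 0.51 on the GFP-plus arrays and between 1.27 and 2.91 on the GFP-minus arrays, with Cd7 lower in GFP-plus cells (named after its values were seen). The mean of 9 monocyte markers lay between -0.49 and -0.20 on the GFP-plus arrays and between 0.48 and 0.80 on the GFP-minus arrays. The mean of 19 enterocyte markers lay between 0.0088 and 0.51 on the GFP-plus arrays and between -0.23 and 0.0057 on the GFP-minus arrays. The part of these markers in the differences was not tested.

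In CD11bCD64 macrophages both groups of genes had higher values in GFP-plus cells, though 0 of the 30 genes passed the limma test after adjustment (0.0271% of all genes did). The median difference was 0.65 for synthesis and 0.77 for uptake and efflux, beside 0.01 over all genes, and 14 of the 16 synthesis genes and all 6 uptake and efflux genes lay above 0. At an unadjusted p under 0.05, 5 of the 30 genes were picked (6.16% of all genes), all 5 higher in GFP-plus cells (4.36% of all genes). All GFP-plus arrays lay above all GFP-minus arrays for 10 of the 30 genes and 7 of the 16 synthesis genes, where 9.63% of all genes showed this.

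Hsd17b7, the sterol ketoreductase, had 1.35, 1.02 and 1.28 in GFP-plus CD11bCD64 macrophages, against -0.64, -1.05 and -0.07 in GFP-minus ones, with no overlap (difference 1.81 ± 0.63, SE, limma adjusted p = 0.653). Sqle had 0.71, 0.73 and 0.60 in GFP-plus cells, against -0.09 and -0.47 in 2 GFP-minus arrays and a value at the probe median in the other, with no overlap (difference 0.87 ± 0.37, SE, adjusted p = 0.775). Hmgcs1 had 0.64, 0.77 and 1.14 in GFP-plus cells, against -1.94, -0.69 and 0.12 in GFP-minus cells, with no overlap (difference 1.69 ± 0.71, SE, adjusted p = 0.775). The GFP-plus arrays were close to each other for these genes, and most of the spread lay in the GFP-minus cells, where replicate 1 of low weight gave the lowest Hmgcs1. Abca1 had 0.91, 0.48 and 1.35 in GFP-plus cells, against -0.49, -0.43 and 0.59 in GFP-minus cells, which overlapped (difference 1.03 ± 0.33, SE, limma adjusted p = 0.591). Abcg1 had 1.19, 1.02 and 1.31 in GFP-plus cells, against -0.28, -0.07 and 0.74 in GFP-minus cells, with no overlap (difference 1.05 ± 0.57, SE). Apoe had 0.31, 0.22 and 0.23 in GFP-plus cells, against -0.07, 0.05 and -0.04 in GFP-minus cells, again with no overlap. Srebf2 had 0.35, -1.05 and 0.51 in GFP-plus cells, against -1.48, -0.21 and 0.61 in GFP-minus cells, and Insig1 had 0.88, -0.02 and 0.43 in GFP-plus cells, against 0.19, 0.30 and 0.16 in GFP-minus cells. Npc1 had 0.16, 0.66 and 1.59 in GFP-plus cells, against -0.56, -0.24 and 1.09 in GFP-minus cells. All 3 overlapped between the groups. Monocyte markers also moved with this gate: the mean of 9 lay between -0.56 and -0.21 on the GFP-plus arrays and between 0.36 and 0.86 on the GFP-minus arrays, with Plac8 lower (named after its values were seen). The mean of 12 macrophage markers lay between 0.39 and 0.44 on the GFP-plus arrays and between -0.07 and 0.13 on the GFP-minus arrays, that of 19 enterocyte markers between 0.10 and 0.46 on the GFP-plus arrays and between -0.30 and -0.21 on the GFP-minus arrays, and that of 17 cell cycle genes was higher on every GFP-plus array than on any GFP-minus array. The part of these lists in the differences was not tested.

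**Figure D3:**
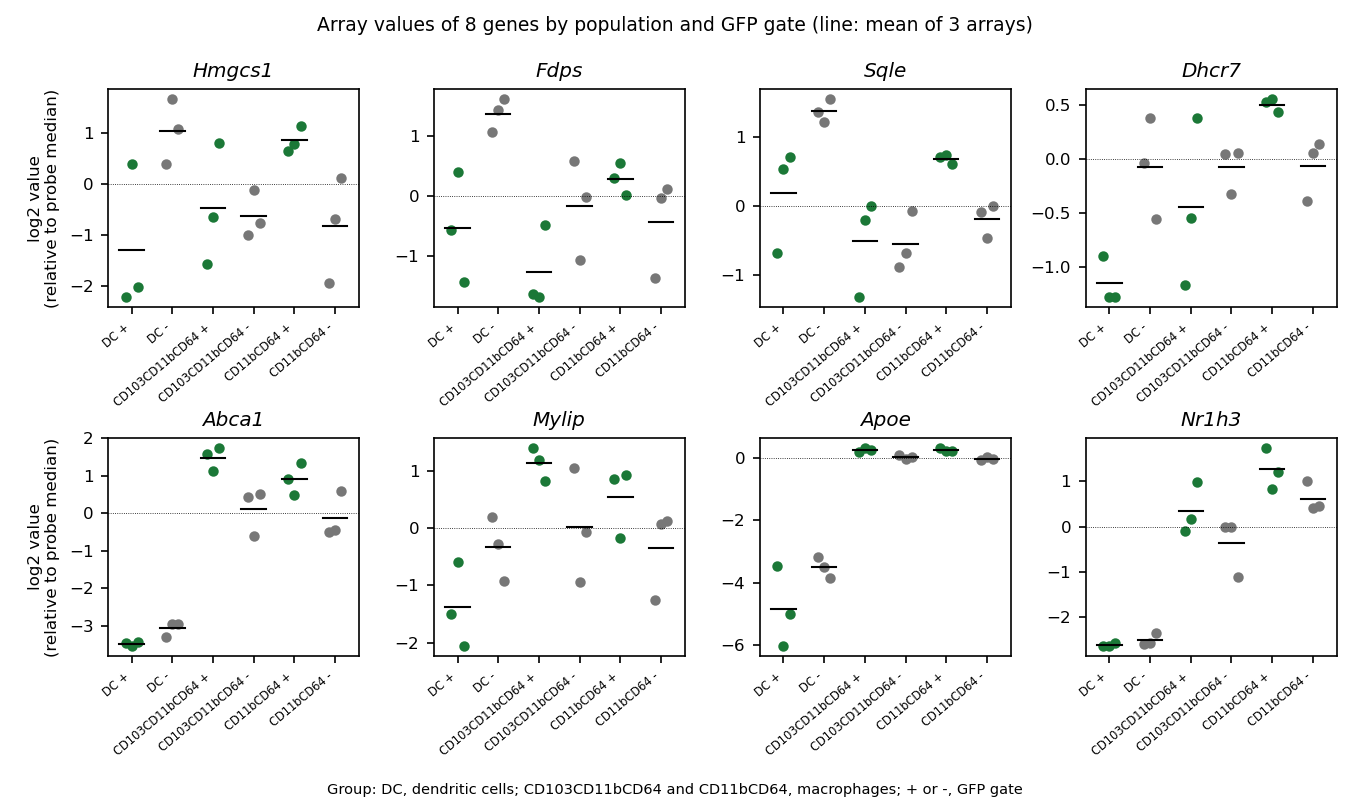
Points give the log2 value (vertical, relative to the probe median) of 8 genes on each array, by population and GFP gate (horizontal, green GFP-plus and grey GFP-minus), and lines the mean of 3 arrays. Hmgcs1, Fdps, Sqle and Dhcr7 are lower in GFP-plus than in GFP-minus DCs on every array, Hmgcs1 by the narrowest gap. Abca1, Apoe and Nr1h3 in DCs lie below every macrophage array.

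Averaged over both macrophage populations, Abca1 was the 1 gene of the 30 called, where 0.415% of all genes were. It rose by 1.20 ± 0.23 log2 units in GFP-plus macrophages (SE, limma adjusted p = 0.0476). The call was close to the threshold, with an adjusted p between 0.00867 and 0.181 over the settings, and was lost in 18 of 27 alternative settings, among them a fit of the macrophage arrays alone (adjusted p = 0.135) and a fit without the 4 arrays of lowest weight (0.90, adjusted p = 0.181). Of the settings that left out 1 array, the call was kept without GFP-plus replicate 2 or GFP-minus replicate 3 of the CD103CD11bCD64 macrophages or GFP-minus replicate 3 of the CD11bCD64 macrophages, and lost without any other. At an unadjusted p under 0.05, 5 genes were picked (11.3% of all genes), all higher in GFP-plus cells (7.67% of all genes): Abca1, Lpl, Nr1h3, Hsd17b7 and Mylip, of which 4 belong to uptake and efflux. Of the 91 genes of neighbouring pathways, 1 was called, the scavenger receptor Stab1, which rose by 0.90 ± 0.18 (SE, limma adjusted p = 0.0476), a call lost in 19 of 27 settings. Markers were called in the same comparison (named after their values were seen): Mertk of the macrophage list rose by 1.76 and Rbp2 of the enterocyte list by 2.20, while Plac8, Ccr2 and Ly6c2 of the monocyte list fell by 3.16, 2.14 and 2.07 and Cd7 of the lymphocyte list by 2.00. Their part in the call of Abca1 was not tested.

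The difference between the GFP effect in DCs and that in macrophages was tested in the same fit, and it shares its arrays with the comparisons above. It was below 0 for 13 of the 16 synthesis genes, with a median of -1.13, and for all 6 uptake and efflux genes, with a median of -1.21, beside -0.03 over all genes. By limma 0 of the 30 genes were called, where 1.33% of all genes were. At an unadjusted p under 0.05, 12 of the 30 were picked (16.5% of all genes), all 12 lower (11.7% of all genes). The smallest adjusted p-values were those of Abca1 (-1.61 ± 0.41, SE, adjusted p = 0.0661), Hmgcs1 (-3.24 ± 0.87, adjusted p = 0.0821), Sqle (-1.65 ± 0.45, adjusted p = 0.0855) and Nsdhl (-1.94 ± 0.61, adjusted p = 0.124). The value of Abca1 rests on DC arrays at the low end of its probe, where background cannot be told from signal. These 4 lay close enough to the threshold for 1 array to move them across it. Limma called 3 of the 30 genes without GFP-plus CD103CD11bCD64 macrophage replicate 1, 2 without GFP-plus DC replicate 2, 2 without GFP-minus CD11bCD64 macrophage replicate 3 and 1 without GFP-plus DC replicate 1. Of the 91 genes of neighbouring pathways, 6 were called, all lower: Mbtps2 (-3.92, limma adjusted p = 0.00613), Fnta (-2.40, adjusted p = 0.00491), Mbtps1 (-2.35, adjusted p = 0.0284), Ggps1 (-3.36, adjusted p = 0.0283), Lipa (-2.00, adjusted p = 0.0259) and Lpcat3 (-1.76, adjusted p = 0.0405). Over 26 settings the call of Fnta was lost in none, that of Mbtps2 in 1 (quantile normalization), that of Lipa in 4, those of Mbtps1 and Ggps1 in 8 each and that of Lpcat3 in 13. Without GFP-minus DC replicate 2 or 3, or without GFP-plus CD11bCD64 replicate 3, the calls of Lipa, Mbtps1, Ggps1 and Lpcat3 were all lost. This comparison also called markers (named after their values were seen). Kif11, Cenpe and Bub1 of the cell cycle list had -2.23, -2.12 and -1.50. Gzma of the lymphocyte list had -3.08, and Defa24 of the secretory epithelial list had 3.83. The part of these markers in the differences was not tested.

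Between the macrophage populations the GFP effects could not be told apart gene by gene. For CD103CD11bCD64 minus CD11bCD64 macrophages, limma called 0 of the 30 genes and 0% of all genes, and 4 of the 30 had an unadjusted p under 0.05 (3.76% of all genes), Fdft1, Fdps, Scap and Mvd, all below 0. The median was -0.91 for the synthesis genes and 0.16 for uptake and efflux.

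With both gates together, the calls between DCs and macrophages lay mostly among the uptake and efflux genes. By limma 9 of the 30 genes were called, where 10.0% of all genes were: 8 were lower in DCs (6.91% of all genes) and Sqle was higher. All 6 uptake and efflux genes were lower in DCs, with a median difference of -2.40, whereas the 16 synthesis genes split evenly about 0, with a median of -0.08, beside -0.03 over all genes. At an unadjusted p under 0.05, 14 of the 30 were picked (20.8% of all genes).

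Abca1 ran from -3.54 (median -3.35) to -2.94 on the 6 DC arrays, against -0.61 (median 0.55) to 1.74 on the 12 macrophage arrays. The difference was -3.86 ± 0.20 (SE, limma adjusted p = 4.67e-09). Apoe, which carries exported cholesterol, ran from -6.04 (median -3.66) to -3.19 in DCs, against -0.07 (median 0.15) to 0.33 in macrophages, a difference of -4.31 ± 0.26 (SE, adjusted p = 2.16e-08). Nr1h3 ran from -2.64 (median -2.57) to -2.35 in DCs, against -1.12 (median 0.43) to 1.73 in macrophages, a difference of -3.02 ± 0.20 (SE, limma adjusted p = 6.28e-08). None of these 3 genes overlapped between DCs and macrophages, and the share of all genes without overlap here was not counted. Abcg1 ran from -1.39 (median -1.36) to -0.75 in DCs, against -1.65 (median 0.76) to 1.45 in macrophages, a difference of -1.79 ± 0.35 (SE, limma adjusted p = 0.00308). The overlap came from replicate 1 of the GFP-plus CD103CD11bCD64 macrophages, the 1 macrophage array with a value below all 6 DC arrays.

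Lpl ran from -1.04 (median -0.54) to -0.39 in DCs, against -0.54 (median 0.68) to 1.12 in macrophages, a difference of -1.05 ± 0.19 (SE, limma adjusted p = 0.00193). Its 2 probes gave -0.52 and -1.59. Mylip ran from -2.06 (median -0.75) to 0.19 in DCs, against -1.25 (median 0.47) to 1.40 in macrophages, a difference of -1.19 ± 0.33 (SE, limma adjusted p = 0.0299), and its call was lost in 8 of 26 settings. These 8 were quantile normalization and the fits without GFP-plus DC replicate 1 or 3, GFP-minus DC replicate 2 or 3, GFP-plus CD11bCD64 replicate 1 or 3 or GFP-minus CD11bCD64 replicate 2. Of the transport genes, Npc1 ran from -2.09 (median -1.88) to -0.26 in DCs, against -0.56 (median 0.16) to 1.59 in macrophages, a difference of -1.88 ± 0.31 (SE, limma adjusted p = 0.000878). Its 2 probes gave -1.62 and -2.14. Npc2, the soluble lysosomal partner of Npc1, was lower too, with a difference of -0.54 ± 0.11 (SE, limma adjusted p = 0.00331). Sqle ran from -0.68 (median 0.96) to 1.55 in DCs, against -1.32 (median -0.08) to 0.73 in macrophages, a difference of 0.92 ± 0.22 (SE, limma adjusted p = 0.0149). Srebf2, at 0.96, and Insig1, at -0.74, overlapped between the populations and missed the threshold.

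**Figure D4:**
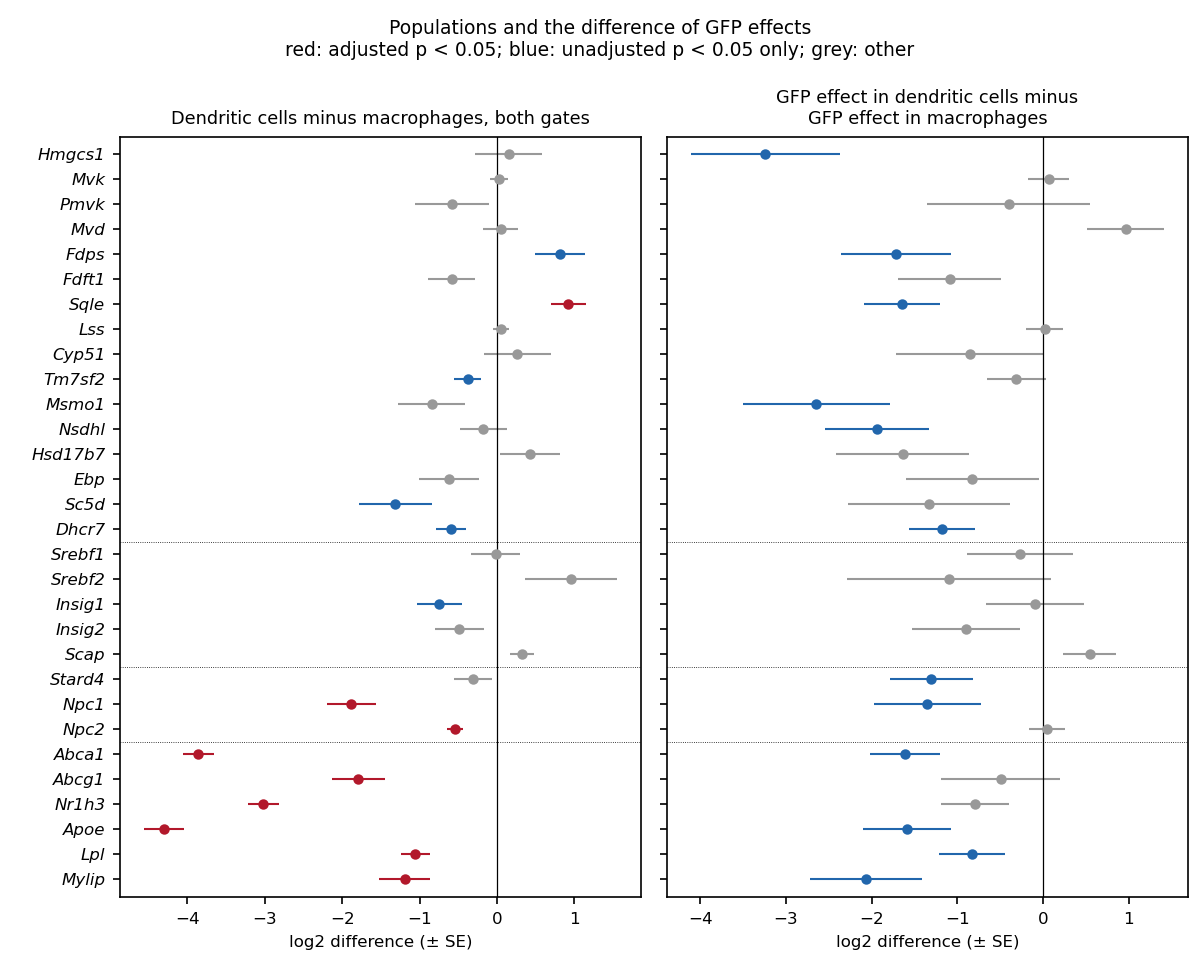
Points give log2 differences with standard errors (horizontal) for the 30 genes (vertical): DCs minus macrophages on the left, and the GFP effect in DCs minus that in macrophages on the right. Red points passed at an adjusted p under 0.05, 9 on the left and 0 on the right. The 6 uptake and efflux genes at the bottom all lie left of 0 in both panels.

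The neighbouring pathways had 20 of 91 genes called between DCs and macrophages, 16 lower and 4 higher in DCs, where 10.0% of all genes were called and 6.91% were called lower. Of 12 other scavenger and lipoprotein receptors and their partners, 6 were lower, among them Msr1 at -4.84, Stab1 at -3.77, Lrp1 at -2.62 and Cxcl16 at -0.85, the scavenger receptor Cd36 was higher at 1.95, and 5 were not called. Of 9 genes of ester storage, hydrolysis and oxysterol synthesis, 3 were lower, with Nceh1 at -3.57, Plin2, the lipid droplet coat, at -3.13 and Lipa at -2.11. Of 14 other LXR targets and efflux genes, 5 were lower, among them Pltp, the phospholipid transfer protein, at -4.49, Il1rn at -4.46, Apoc2 at -3.63 and Lpcat3 at -1.25. Fads1, a fatty acid desaturase, was lower at -2.60 and Stard5, a sterol carrier, at -1.53, while Elovl5, a fatty acid elongase, Erlin1 and Vcp, which serve sterol-dependent protein degradation, were higher at 0.67, 1.89 and 0.78. The calls of Elovl5 and Vcp were close to the threshold and were lost in 14 and 17 of 26 settings, and that of Stard5 was lost without GFP-minus DC replicate 1.

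Between CD103CD11bCD64 and CD11bCD64 macrophages, with both gates together, limma called 0 of the 30 genes, where 0.0721% of all genes were called, and 8 had an unadjusted p under 0.05 (5.51% of all genes), all lower in CD103CD11bCD64 macrophages. The median was -0.52 for synthesis and 0.00 for uptake and efflux. The smallest p-values were those of Nr1h3 (-0.95 ± 0.23, SE, limma adjusted p = 0.304), Msmo1 (-1.72 ± 0.49, adjusted p = 0.531), Stard4 (-0.84 ± 0.28, adjusted p = 0.674) and Sc5d (-1.65 ± 0.55, adjusted p = 0.674). Msmo1 reached 1.86, 1.58 and 1.55 in GFP-plus CD11bCD64 macrophages, against -0.31, 1.15 and 1.69 in GFP-minus ones, and had -1.55, 0.01 and 0.70 in GFP-plus CD103CD11bCD64 macrophages, against -1.23, -0.74 and -0.01 in GFP-minus ones. Sc5d, the lathosterol desaturase, was above 0 on all 6 CD11bCD64 arrays, between 0.50 and 1.08, and reached 0.68 at most in the CD103CD11bCD64 cells. Gzma of the lymphocyte list was higher in CD103CD11bCD64 macrophages by 3.67 (limma adjusted p = 0.000287, named after its values were seen). Lymphocyte marker means were 0.25 and 1.85 in their GFP-plus and GFP-minus cells, against -0.35 and -0.14 in CD11bCD64 macrophages. Itgae, whose protein the gates used, missed the threshold (1.19, limma adjusted p = 0.790). The part of these markers in the differences was not tested.

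Set side by side within an array, the 2 arms of the pathway ordered the populations differently. The mean of the 16 synthesis genes minus the mean of the 6 uptake and efflux genes was 1.71 ± 0.62 in GFP-plus DCs and 2.07 ± 0.24 in GFP-minus DCs (SD, n = 3 each). It was -1.25 ± 0.41 in GFP-plus CD103CD11bCD64 macrophages and -0.36 ± 0.18 in GFP-minus ones, and -0.24 ± 0.37 in GFP-plus CD11bCD64 macrophages and -0.15 ± 0.25 in GFP-minus ones (SD, n = 3 each). The 3 GFP-plus CD103CD11bCD64 arrays, at -1.67, -1.22 and -0.85, lay below their 3 GFP-minus arrays, at -0.57, -0.22 and -0.29. In the other populations the gates overlapped. Since every probe is centred, this quantity ranks arrays and says nothing of how much of either arm a cell holds.

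**Figure D5:**
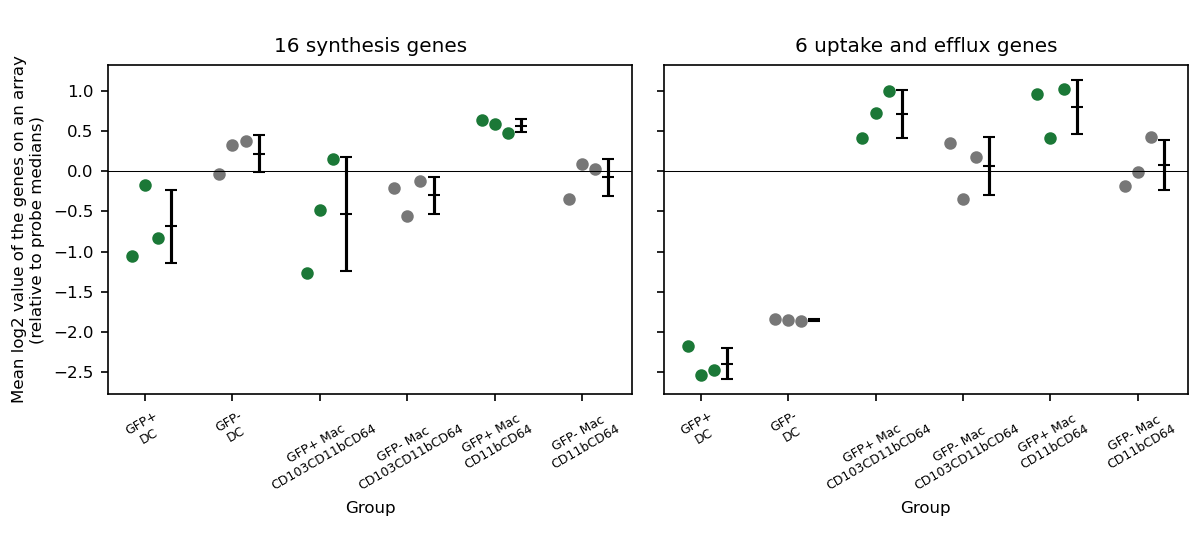
Points give the mean log2 value (vertical, relative to probe medians) of the 16 synthesis genes and of the 6 uptake and efflux genes on each array, by group (horizontal, green GFP-plus and grey GFP-minus), with the mean ± SD of 3 arrays beside them. Synthesis means were between -1.06 and -0.18 on GFP-plus DC arrays, against -0.04 to 0.38 on GFP-minus ones. Uptake and efflux means were at most -1.84 on the 6 DC arrays and at least -0.34 on the 12 macrophage arrays.

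The synthesis means place the groups in this order: GFP-plus CD11bCD64 macrophages at 0.57 ± 0.08, GFP-minus DCs at 0.22 ± 0.23, GFP-minus CD11bCD64 macrophages at -0.08 ± 0.23, GFP-minus CD103CD11bCD64 macrophages at -0.30 ± 0.23, GFP-plus CD103CD11bCD64 macrophages at -0.53 ± 0.71 and GFP-plus DCs at -0.69 ± 0.46 (SD, n = 3 each). Neighbours in this order overlapped, except GFP-plus CD11bCD64 macrophages, whose lowest array at 0.48 lay above the highest GFP-minus DC array at 0.38. All 16 synthesis genes were above 0 on replicate 1 of the GFP-plus CD11bCD64 macrophages, 15 on replicate 2 and 14 on replicate 3. The fewest were above 0 on replicate 1 of the GFP-plus CD103CD11bCD64 macrophages, 2 of 16, and on replicate 1 of the GFP-plus DCs, 3 of 16. For uptake and efflux the means were -2.39 ± 0.19 in GFP-plus DCs and -1.85 ± 0.015 in GFP-minus DCs, 0.71 ± 0.30 in GFP-plus CD103CD11bCD64 macrophages and 0.06 ± 0.36 in GFP-minus ones, and 0.80 ± 0.34 in GFP-plus CD11bCD64 macrophages and 0.08 ± 0.31 in GFP-minus ones (SD, n = 3 each).

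The other genes passed no test after adjustment. Pmvk, the phosphomevalonate kinase, and Ebp, the sterol isomerase, had their lowest values, -3.65 and -2.93, on replicate 1 of the GFP-plus CD103CD11bCD64 macrophages. Cyp51, the lanosterol demethylase, was lowest on replicate 1 of the GFP-plus DCs at -2.39 and reached 0.42 at most. Mvk and Lss, the kinase of mevalonate and the cyclase that forms lanosterol, varied least among the synthesis genes, with group means between -0.06 and 0.02 for Mvk and between -0.09 and 0.15 for Lss. The group means of the sterol reductase Tm7sf2 ran from -0.44 to 0.15. Srebf1, which encodes the SREBP of the fatty acid genes, had group means between -0.51 and 0.18. Insig2 had group means between -0.64 and 0.42, and those of Scap, measured by 2 probes, ran from -0.41 to 0.49.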

How the data were processed

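Amplification started from 1 ng of RNA with NuGEN's Ovation Pico kit, and cDNA was hybridised to Affymetrix arrays, per the labels' protocols. The deposited values are log2, a base inferred from the widest span of 1 probe, 10.1 units, where log10 of scanner signals could span 4.82. Each deposited probe is centred on its median over 18 arrays. Their summarisation and normalization: not given in the sources used here. No further normalization was done. Of 33793 probes, 23521 had 1 symbol in the platform annotation, and several probes of a gene were averaged, which left 22180 genes.

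The 6 group means were fitted with limma 3.58.1 in R 4.3.3 (12 residual and 2.09 prior degrees of freedom), with Benjamini-Hochberg adjustment over all genes and a threshold of 0.05. The scripts were tested on simulated data. Precision is limited by having 3 arrays per group. Promoters came from a RefSeq table. The members and lists were chosen with earlier results of these data known. Values were named for called genes, else the 4 smallest p-values in a comparison, and for Srebf2, Insig1, Abca1, Abcg1, Apoe and Npc1, with at most 4 called genes per neighbouring list. Alternatives were quantile normalization, a replicate block, array weights, other eBayes settings, fits of fewer arrays and leaving out arrays.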

Additional observations from a re-analysis of the deposited data

How the results depend on the processing

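The counts of called genes among the 30 moved with the setting more than the values did, and no called difference changed sign. In DCs 0 became 1 with a replicate block (Msmo1), 1 with array weights (Apoe) and 1 without the 4 arrays of lowest weight (Apoe, a setting chosen after seeing the data), and ran from 0 to 4 on leaving out 1 array. For the mean over macrophages, 1 became 0 in the fit of the macrophage arrays alone, with robust eBayes and without those 4 arrays, and ran from 0 to 1 on leaving out 1 array. For the difference between DCs and macrophages in the GFP effect, 0 became 5 with the replicate block (Hmgcs1, Sqle, Msmo1, Npc1 and Abca1), 4 with array weights and 2 without the 4 arrays, and ran from 0 to 3 on leaving out 1 array. Between DCs and macrophages 8 to 13 genes were called, and in the other 4 comparisons 0 in every setting. Replicate numbers are shared by the groups, and the labels do not say whether they mark shared mice or sorts. Within populations, deviations of same-numbered GFP-plus and GFP-minus samples correlated from -0.138 to 0.248, and those of differently numbered samples from -0.301 to 0.264. With 3 arrays per group these correlations cannot decide whether same-numbered samples share more than a number. Medians of the synthesis and of the uptake and efflux genes moved by less than 1 SD in 421 cases and by more in 7. The SD is that of the list mean between arrays of a group, pooled over the groups, so sizeable shifts count as unmoved. The synthesis median in CD11bCD64 macrophages ran from 0.35 to 0.80 beside 0.65 without passing it. Quantile normalization took the medians in DCs to -0.49 for synthesis and 0.14 for uptake and efflux (a change of sign), that of uptake and efflux between DCs and macrophages to -1.89, and the medians of the DC minus macrophage GFP effect to -0.55 for synthesis and -0.66 for uptake and efflux. Without GFP-plus DC replicate 2 the last of these was -0.89, and without GFP-plus replicate 3 the synthesis median in CD103CD11bCD64 macrophages was -0.33. Over all genes the calls in DCs ran from 48 to 711 beside 351, in CD103CD11bCD64 macrophages from 0 to 95 beside 12, in CD11bCD64 macrophages from 0 to 53 beside 6, for the mean over macrophages from 9 to 654 beside 92, for the DC minus macrophage GFP effect from 50 to 728 beside 295, and for DCs minus macrophages from 1816 to 2598 beside 2229. The cause of these shifts was not tested.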
